A study of Mus musculus with 16 samples.

Results

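The data described here are the levels of 39 genes that build or mark an epithelium, read in 16 RNA sequencing libraries of mouse fibroblasts in the first days of reprogramming. The genes encode adherens junction, desmosome and tight junction proteins, simple epithelial keratins, polarity and trafficking proteins, regulators of epithelial genes, and cell surface proteins with the proteases and protease inhibitors that accompany them. They were taken by symbol from the deposited table, in which all 39 were found among 18990 genes. Of the 39, 37 passed the filter on low values (a mean of at least 0 on the log2 CPM scale over all libraries, where CPM is reads per 1000000 reads of the library) and were tested among 14028 genes. *Rab25* and *Ovol1* did not pass.

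All libraries came from wild-type BL6 mouse embryonic fibroblasts (MEFs) that were transduced at passage 1, reprogrammed at passage 2 and carried 2 lentiviruses, a tetracycline-inducible STEMCCA cassette with Oct4, Sox2, Klf4 and c-Myc (OSKM) and the transactivator rtTA. Cells were reverse transfected with 40 nM of pooled siRNAs, which were non-targeting (nt control) or directed at *Wdr5* (siWdr5), *Brca1* (siBrca1) or *Bard1* (siBard1). A day later OSKM was induced with doxycycline at 2 µg per mL, in a medium that also held chiron, ascorbic acid, LIF and Alk5i, an inhibitor of TGF-beta signalling. RNA was collected at day 3 or day 6, with 2 libraries for each of the 8 groups from independent experiments. No library of uninduced fibroblasts or of established pluripotent cells entered the comparisons, and every group, the nt control included, had received the cassette, the inhibitor and an siRNA.

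Epithelial cells adhere to each other through cadherins, which bind catenins and actin at adherens junctions, and through desmosomes, which anchor keratin filaments. Tight junctions, made of claudins, occludin and their ZO scaffold proteins, seal the space between the cells, and the Par and Crumbs complexes set the apical side apart. Fibroblasts lack most of these structures, and reprogramming fibroblasts pass through a mesenchymal-to-epithelial transition (MET) in which they are built. The comparisons ask how far these genes moved in the nt control from day 3 to day 6, and how their levels in the knockdowns differed from the nt control on each day.

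The libraries held 11169738 to 26832534 reads, recovered from the deposited values as whole numbers, and a gene with 0 reads stands at 0.136 CPM there. At day 3 *Wdr5* stood at 132 and 130.5 CPM in the nt control and 50.6 and 55.3 CPM in siWdr5, a log2 fold change of −1.31 (SE 0.10, adjusted p = 3.02e-06). *Brca1* was at 82.4 and 78.0 CPM in the nt control and 37.5 and 19.4 CPM in siBrca1 (−1.57, SE 0.22, adjusted p = 7.90e-05), and *Bard1* at 30.5 and 29.1 CPM against 18.01 and 20.8 CPM in siBard1 (−0.62, SE 0.19, adjusted p = 0.0422). The falls were not limited to the targeted gene: at day 3 all 3 transcripts were called lower in siWdr5 and in siBrca1, and 2 in siBard1. *Bard1* stood at 13.9 and 15.3 CPM in siWdr5 and 14.4 and 9.07 CPM in siBrca1, below both siBard1 libraries. At day 6 none of the 3 targeted transcripts differed from the nt control in its own knockdown, with log2 fold changes of −0.27 for *Wdr5*, 0.013 for *Brca1* and 0.11 for *Bard1*. In this text a log2 fold change is a difference of mean log2 CPM, given with its standard error (SE), and a gene rose or fell where limma gave an adjusted p below 0.05 over all 14028 genes. The p-values measure the spread between these libraries.

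In the nt control, most tight junction, keratin, polarity, regulator and surface genes rose from day 3 to day 6, while the adherens junction and desmosome genes were mixed. Of the 37 tested genes 27 rose and 5 fell, where 19% of all genes tested rose and 27.1% fell. The median log2 fold change was 2.37 over the tested genes of the set and −0.07 over all genes tested. Of the 5 adherens junction genes tested 1 rose (*Cdh1*) and 2 fell, with a median log2 fold change of 0.040, and of the 5 desmosome genes 2 rose and 1 fell, with a median of −0.035. Of the 9 tight junction genes 8 rose, and all 5 surface genes and all 4 tested regulators did. A part of these counts follows from the filter: 12 of the 37 had a mean log2 CPM below 0 over the day 3 libraries and were tested because of their day 6 level, and all 12 rose. They include the regulators *Esrp1*, *Elf3* and *Grhl2*, the tight junction genes *Cldn3*, *Cldn4*, *Cldn6*, *Cldn7* and *Cgn*, and the surface gene *Prss8*. The counts by kind of gene are bound to the filter in the same way. Of all 14028 genes tested, 402 had a day 3 mean below 0. Among the 25 genes of the set with a day 3 mean of at least 0, 15 rose and 5 fell. The shares among all genes at that day 3 level were not counted.

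The largest rises were in genes that were barely read at day 3. *Cldn6*, a claudin of early embryonic epithelium, had 4 and 1 reads in the nt control at day 3 and 209 and 286 reads at day 6. *Ap1m2*, the epithelial subunit of the AP-1 adaptor that sorts proteins to the basolateral membrane, had 3 and 2 reads and then 171 and 191 reads. With so few reads at day 3 the size of such a rise is loosely bound. Ratios here are of summed reads, day 6 over day 3, scaled for library size and without the small count added in the deposited values. The ratio was 129 (95% interval 55.0 to 399.8) for *Cldn6* and 94.5 (95% interval 40.1 to 293) for *Ap1m2*. These exact binomial intervals cover counting error only. *Crb3*, a Crumbs protein of the apical membrane, went from 8 and 2 reads to 271 and 270 reads, a ratio of 70.6 (95% interval 38.1 to 148). *Cldn7*, *Grhl2* and *Prss8* also had between 2 and 8 reads per nt library at day 3 and ratios of 30.7, 31.7 and 34.3. *Rab25*, a recycling endosome GTPase of epithelia, had 3 and 1 reads at day 3 and 33 and 39 reads at day 6, and *Ovol1*, a zinc finger repressor of mesenchymal genes, 3 and 1 and then 12 and 13 reads. These 2 genes stood below the filter on the mean over all libraries and were not tested. When the filter was left out, 34 genes of the set were called in the nt course, in place of 32.

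The partner keratins *Krt8* and *Krt18* had the largest rises among the 25 genes with a day 3 mean of at least 0. *Krt8* went from 8.05 and 3.56 CPM to 169 and 232 CPM (5.21, SE 0.37, adjusted p = 2.18e-07) and *Krt18* from 3.76 and 4.30 CPM to 115 and 190.0 CPM (5.20, SE 0.28, adjusted p = 1.86e-08). *Cldn4*, which seals tight junctions, rose from 1.46 and 0.878 CPM to 43.4 and 59.0 CPM. *Epcam*, a homophilic adhesion protein of epithelia and pluripotent cells, rose from 11.1 and 5.90 CPM to 105 and 98.3 CPM (3.65, SE 0.34, adjusted p = 1.72e-06). *Cdh1*, which encodes E-cadherin, the adhesion receptor of epithelial adherens junctions, was already read 627 and 513 times at day 3 and rose by a smaller step, from 41.5 and 29.4 CPM to 117 and 159 CPM (1.97, SE 0.22, adjusted p = 7.57e-06).

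The 5 genes that fell all stood at 36.1 CPM or more in the nt libraries of day 3. *Ctnna1* (alpha-catenin) went from 270.2 and 276 CPM to 199.7 and 214 CPM (−0.40, SE 0.11, adjusted p = 0.00853), and *Ctnnd1* (p120-catenin) from 36.1 and 41.2 CPM to 22.6 and 28.1 CPM (−0.61, SE 0.15, adjusted p = 0.00276). *Dsp*, the desmosome linker desmoplakin, fell from 219.6 and 250.1 CPM to 116 and 168 CPM (−0.75, SE 0.21, adjusted p = 0.00801). The polarity scaffold *Pard3* changed by −0.62 (SE 0.10, adjusted p = 1.87e-04) and the ZO-1 gene *Tjp1* by −0.53 (SE 0.12, adjusted p = 0.00228). Both day 6 libraries lay below both day 3 libraries for each of these genes. Catenins, ZO-1 and Par3 also serve cell contacts of fibroblasts. The calls of *Ctnna1*, *Dsp* and *Ctnnd1* were lost under 1 to 3 of 13 alternatives each. In GENCODE vM21, 61.2% of the exon bases of *Ctnnd1* also belong to another gene model on the same strand, so its reads may be shared and its value is uncertain.

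*Jup* (plakoglobin), *Cdh3* (P-cadherin), *Pkp2* (plakophilin 2), *Dsc2* (a desmocollin) and *Krt19* did not pass the test over the course. Their log2 fold changes were 0.17, 0.040, −0.28, −0.035 and 0.011, with SEs of 0.12, 0.22, 0.13, 0.23 and 0.14. These genes were at 48.1 and 51.8 CPM, 8.84 and 7.32 CPM, 93.7 and 82.3 CPM, 16.3 and 12.9 CPM, and 28.7 and 30.9 CPM at day 3, in the same order. Per kilobase of exon at day 3, the order of mean levels in the nt control ran from *Ctnna1* (42.5 CPM per kb), *Dsp* (24.3), *Tjp1* (20.8), *Pkp2* (16.4) and *Krt19* (16.1 CPM per kb) down to *Grhl2* (0.0439 CPM per kb). At day 6 *Krt18* (106.0 CPM per kb) and *Krt8* (102.6 CPM per kb) headed the order, ahead of *Epcam* (46.2), *Ctnna1* (32.2), *Cdh1* (30.2) and *Cldn4* (28.2 CPM per kb). *Krt18* and *Krt8* did not differ beyond the spread of their libraries.

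**Figure D1:**
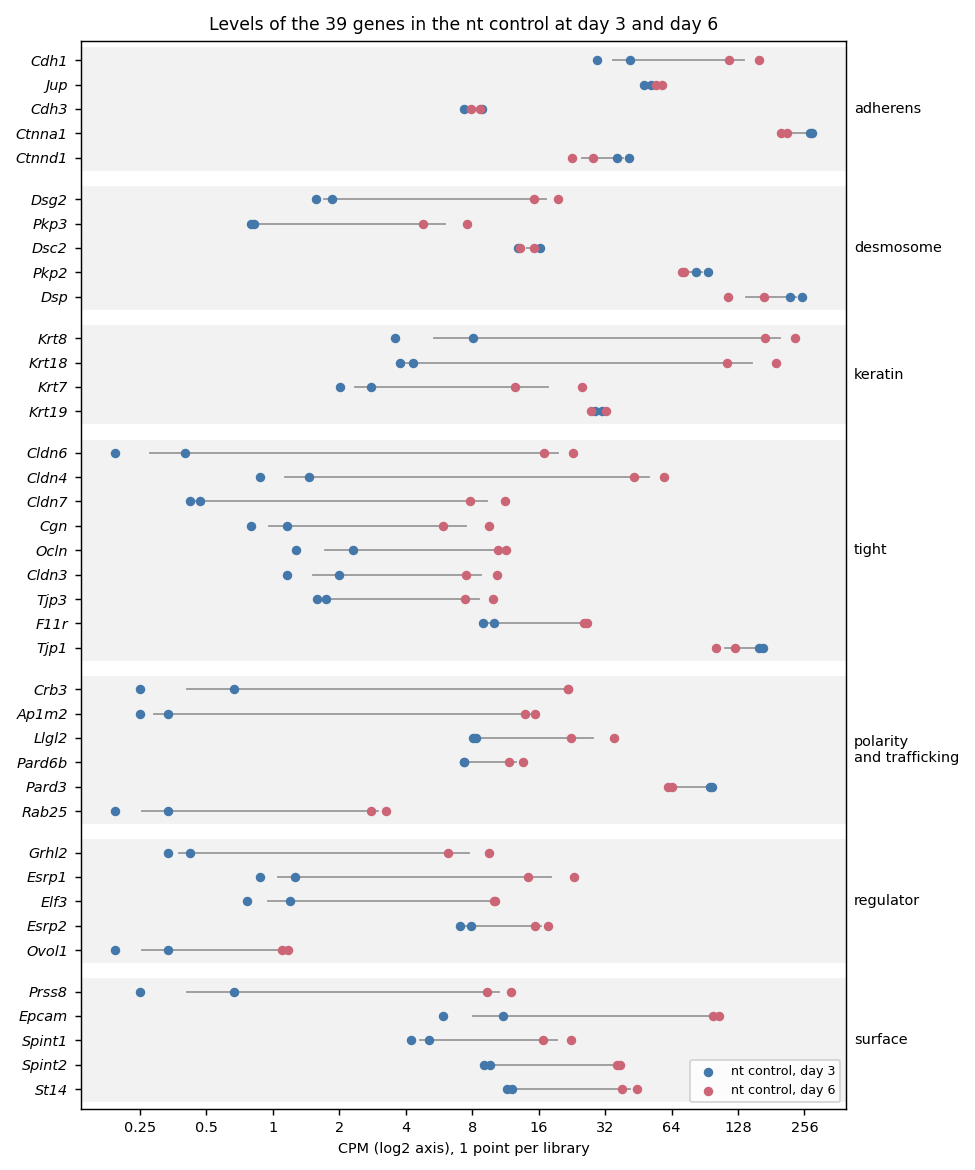
CPM of each of the 39 genes (log2 axis, including the small prior count of the deposited values) in the 2 nt control libraries of day 3 (blue) and of day 6 (red), by kind of gene and sorted by the change. Grey lines join the means of the log2 values; the genes at the left edge at day 3, such as *Cldn6* and *Ap1m2*, had 1 to 4 reads per library, while *Ctnna1*, *Dsp*, *Tjp1* and *Pard3* lay to the left at day 6.

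The promoters of these genes are shown because the repressors that hold epithelial genes silent in mesenchymal cells, ZEB and SNAI proteins, bind an E-box with the letters CAGGTG or, on the other strand, CACCTG. RefSeq promoter windows (250 bases before to 50 bases after a transcript start, GRCm38.p6) were matched by symbol for 24 of the 39 genes, with 30 windows in all. The E-box letters stood in 22 of the 30 windows (73.3%), against 20.2% of the 32851 windows of all genes. By gene, 19 of 24 (79.2%) had at least 1 such window, against 20.7% of the 10195 tested genes that had a window. Base composition was close in both sets, with a median GC content of 61.8% in the windows of the set and 61.0% in those of the tested genes. Of the 18 matched genes that rose in the nt course 16 had the letters, of the 4 that fell 2 had them, and of the other 2, *Jup* and *Rab25*, 1 had them. The GGGCGG box of KLF and SP proteins (or CCGCCC) was found for 17 of 24 genes (70.8%) and for 38.2% of all 27025 genes with a window. The windows of all genes had a lower median GC content, 52.7%, so base composition was not matched for this GC-only box. A match of letters is a description of the window and shows no binding. The windows of 5 genes that the results below turn on are printed 5′ to 3′ in the direction of transcription, with CAGGTG and CACCTG in capitals: *Epcam*, *Pard6b* and *Spint1*, which fell in siWdr5 and in siBrca1 at day 3, *F11r*, which rose in siBrca1 and siBard1, and *Ap1m2*, whose window holds 4 E-boxes.
Epcam (chr17:87635729-87636028, plus strand): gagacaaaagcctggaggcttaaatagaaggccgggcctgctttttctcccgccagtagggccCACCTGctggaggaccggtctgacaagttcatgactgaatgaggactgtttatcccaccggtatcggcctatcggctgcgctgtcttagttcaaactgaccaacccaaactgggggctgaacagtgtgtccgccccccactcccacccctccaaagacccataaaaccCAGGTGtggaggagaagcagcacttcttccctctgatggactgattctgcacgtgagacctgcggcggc
Pard6b (chr2:168080754-168081053, plus strand): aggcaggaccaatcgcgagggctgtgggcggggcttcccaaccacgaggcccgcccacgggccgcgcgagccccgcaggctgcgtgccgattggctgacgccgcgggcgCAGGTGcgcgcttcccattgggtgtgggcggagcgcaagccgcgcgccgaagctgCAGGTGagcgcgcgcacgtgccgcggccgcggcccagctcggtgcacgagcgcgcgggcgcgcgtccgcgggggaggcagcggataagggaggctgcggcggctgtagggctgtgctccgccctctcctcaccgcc
Spint1 (chr2:119237110-119237409, plus strand): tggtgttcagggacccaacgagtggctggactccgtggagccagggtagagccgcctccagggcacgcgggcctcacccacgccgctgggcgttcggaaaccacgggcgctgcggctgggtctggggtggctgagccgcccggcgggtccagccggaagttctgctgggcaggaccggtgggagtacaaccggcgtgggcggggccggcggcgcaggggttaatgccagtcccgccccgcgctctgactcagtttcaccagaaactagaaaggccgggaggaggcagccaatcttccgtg
F11r (chr1:171437311-171437610, plus strand): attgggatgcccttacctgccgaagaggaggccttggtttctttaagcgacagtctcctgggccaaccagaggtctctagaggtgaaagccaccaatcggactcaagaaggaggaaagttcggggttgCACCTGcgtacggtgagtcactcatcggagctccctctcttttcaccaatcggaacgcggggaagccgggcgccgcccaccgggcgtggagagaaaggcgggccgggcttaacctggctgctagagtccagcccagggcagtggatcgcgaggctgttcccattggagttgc
Ap1m2 (chr9:21312284-21312583, minus strand): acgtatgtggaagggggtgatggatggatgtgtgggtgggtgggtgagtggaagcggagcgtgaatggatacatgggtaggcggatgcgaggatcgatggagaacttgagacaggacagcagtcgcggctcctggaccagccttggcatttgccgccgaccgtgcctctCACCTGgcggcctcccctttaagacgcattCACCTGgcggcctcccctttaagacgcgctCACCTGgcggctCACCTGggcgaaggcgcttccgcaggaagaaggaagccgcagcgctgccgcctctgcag
The *Epcam* E-boxes begin 187 and 19 bases before the annotated start, and those of *Pard6b* 141 and 86 bases before it. In *Ap1m2* all 4 lie within the last 81 bases before the start. The *Spint1* window holds neither version of the 6 letters.

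At day 3, *Cdh1*, *Epcam*, *Spint1* and *St14* fell in siWdr5 and in siBrca1 and were not called in siBard1, while *Pard6b* and *Pkp2* fell in all 3 knockdowns. The catenin genes *Ctnna1* and *Ctnnd1*, plakoglobin (*Jup*) and *Krt19* rose in siWdr5 and siBrca1. In siWdr5 11 of the 37 tested genes fell and 5 rose, where 16.8% of all genes tested fell and 18.3% rose. The median log2 fold change was −0.57 in the set and −0.04 over all genes tested. In siBrca1 9 fell and 7 rose, against 21.8% and 25.4% of all genes, so the shares of calls in the set (24.3% and 18.9%) were near those of all genes, with medians of −0.37 and 0.0022. In siBard1 3 fell and 2 rose, against 5.87% and 8.67% of all genes, with medians of −0.17 and −0.02. The 12 genes with a day 3 mean below 0, which had few reads for a test, gave 2 of the 16 calls in siWdr5 and none in the other knockdowns. Without nt replicate 1 the siWdr5 count was 8, and without siWdr5 replicate 1 it was 9. Leaving out any of the siBard1 or nt libraries left 1 call in siBard1.

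All knockdowns were compared with the same 2 nt libraries, so their differences are not independent of each other and are given side by side. In siWdr5 the genes that fell were *Spint1* (−2.04), *Epcam* (−1.93), *Spint2* (−1.54), *Cdh1* (−1.46), *Elf3* (−1.45), *Cldn3* (−1.31), *Krt8* (−1.23), *St14* (−1.14), *Pard6b* (−1.04), *Esrp2* (−0.75) and *Pkp2* (−0.37). In siBrca1 they were *Cdh1* (−1.46), *Epcam* (−1.46), *Spint1* (−1.27), *Tjp3* (−1.14), *Esrp2* (−1.04), *Dsp* (−1.03), *Pard6b* (−0.97), *Pkp2* (−0.71) and *St14* (−0.62). In siBard1 they were *Dsp* (−0.82), *Pard6b* (−0.77) and *Pkp2* (−0.44). The rises were smaller, with *Krt7* (0.83) and *Jup* (0.75) the largest in siWdr5, *F11r* (1.26) and *Krt18* (1.04) in siBrca1, and *F11r* (0.79) in siBard1. In bulk RNA, fewer cells of a type and less RNA per cell cannot be told apart, here and in all comparisons that follow.

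**Figure D2:**
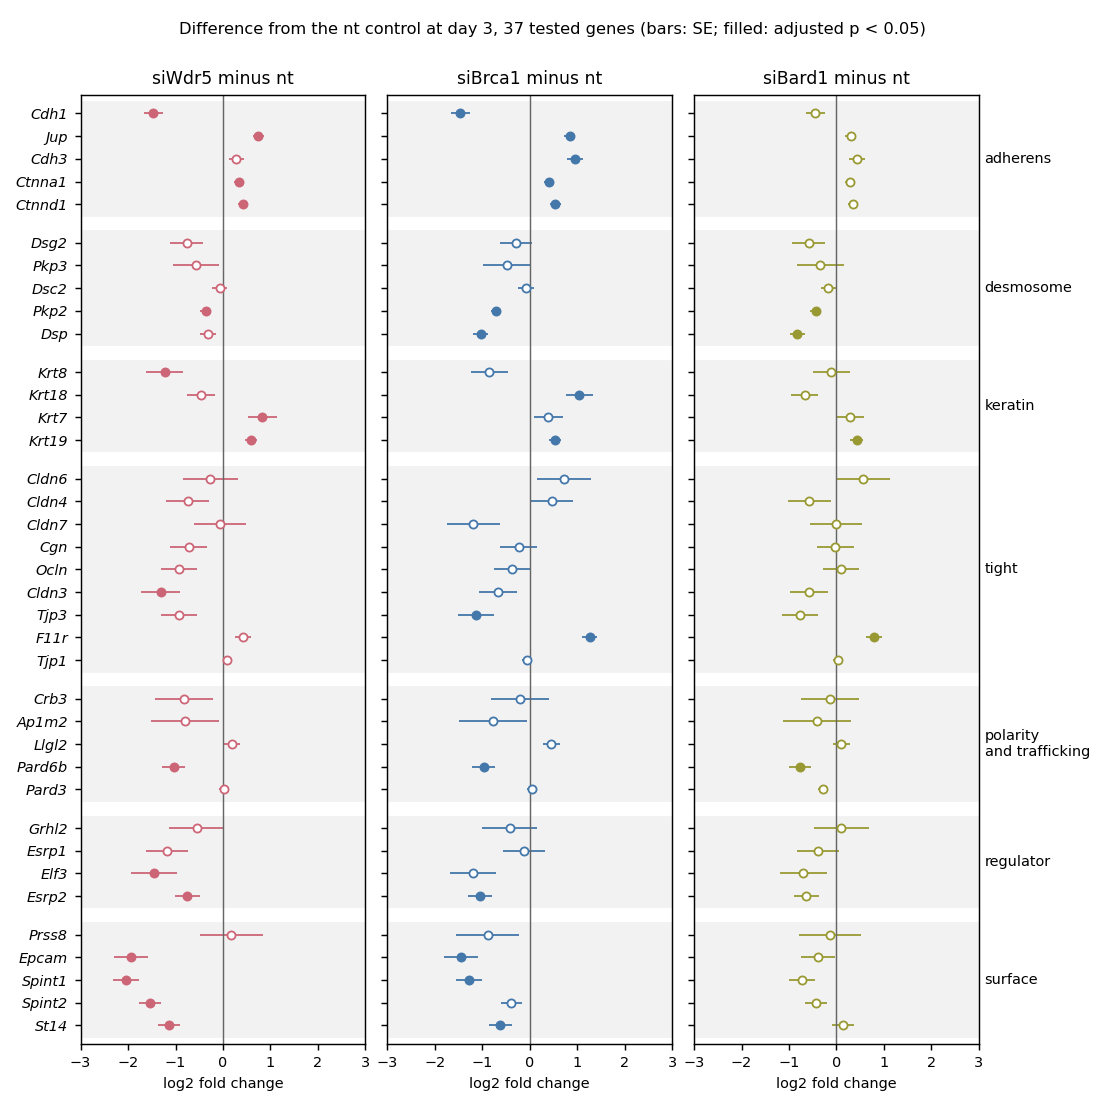
Log2 fold change (x axis) of each of the 37 tested genes against the nt control at day 3 in siWdr5 (red), siBrca1 (blue) and siBard1 (olive), with bars for the SE and filled points for adjusted p below 0.05. *Cdh1*, *Epcam* and *Spint1* lie far to the left in siWdr5 and siBrca1, and *Jup* and *Krt19* to the right.

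At day 6, claudins and other late genes were lower in siWdr5 than in the nt control, while in siBrca1 and siBard1 no difference of the set passed the test. Whether siWdr5 differed from the other knockdowns at this day was not tested. In siWdr5 13 of the 37 tested genes were lower than in the nt control and 1, *Pard3*, was higher, where 5.7% of all genes tested were lower and 16.1% higher. The median log2 fold change was −0.55 in the set and 0.08 over all genes tested. The claudins *Cldn3*, *Cldn4*, *Cldn6* and *Cldn7* and the ZO-3 gene *Tjp3* were lower, and so were *Crb3*, *Ap1m2*, *Esrp1*, *Dsg2*, *Pkp2*, *Krt8*, *Epcam* and *Spint2*. The count rests on single libraries: no gene was called without nt replicate 2 or without siWdr5 replicate 2, and 6 were called without nt replicate 1. Replicate 2 of siWdr5 is the library with 26832534 reads, and in 10 of the 13 genes it was the lower of the pair.

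For siBrca1 at day 6 limma called 0 of the 37 genes and 0 of the 14028 genes tested (0% lower and 0% higher), and limma-voom on the recovered reads also called 0. At an unadjusted p below 0.05 there were 4 genes of the set, 3 of them lower, and 1123 of the 14028 genes. For siBard1 at day 6, 0 of the 37 genes were called by either tool, where 0% of all genes tested were called lower and 0.0784% higher. At an unadjusted p below 0.05, 18 of the 37 were lower in siBard1 and none was higher, while 1908 of the 14028 genes passed that level in either direction. The median log2 fold change of the set was −0.54. The lowest adjusted p among the 37 genes was 0.0736, for *Cldn4*.

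**Figure D3:**
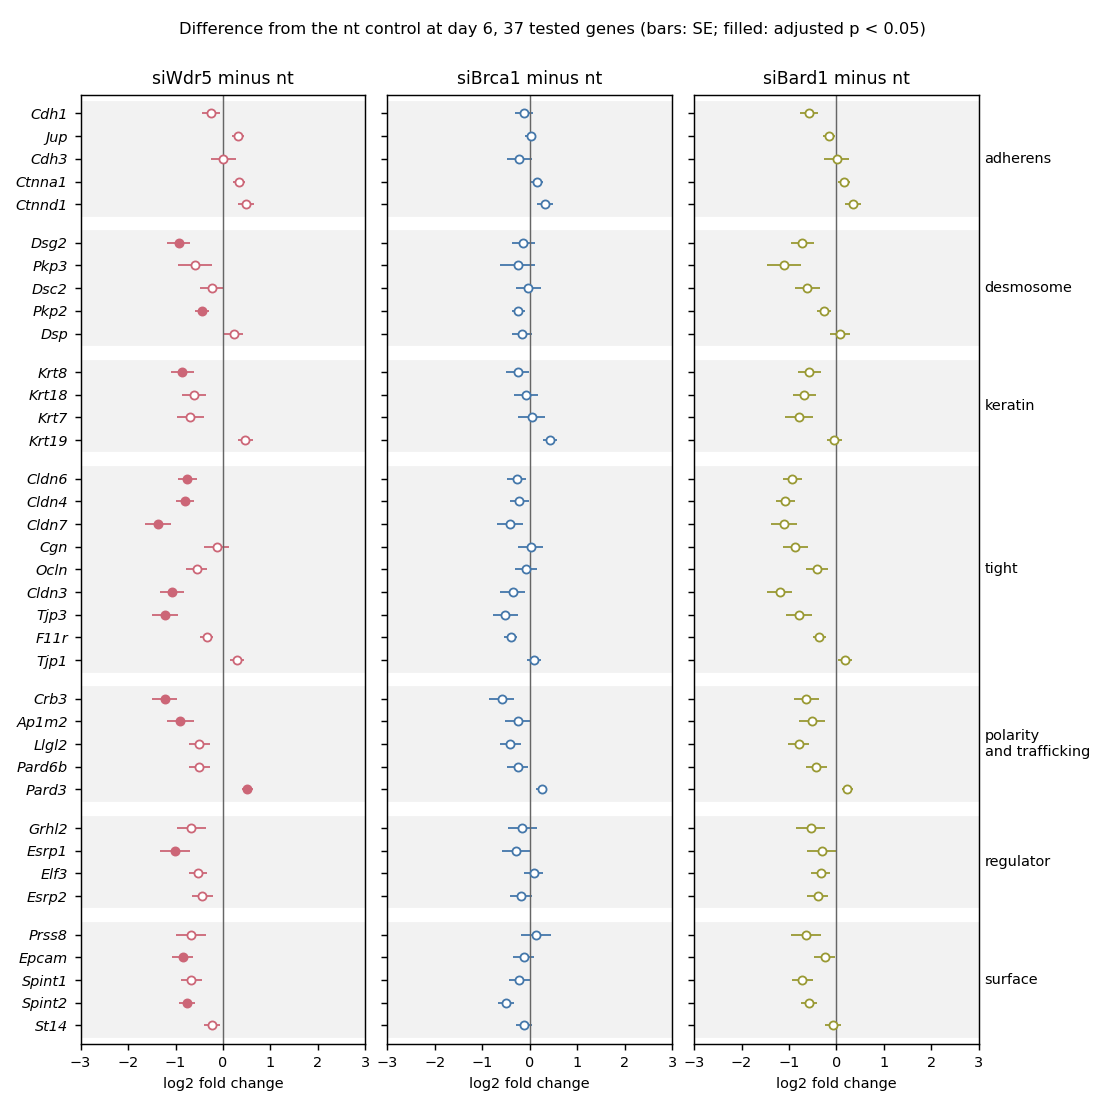
Log2 fold change (x axis) of each of the 37 tested genes against the nt control at day 6, drawn as at day 3. In siWdr5 13 filled points lie to the left and that of *Pard3* to the right; in siBrca1 and siBard1 no point is filled.

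The change of a knockdown difference between the days was tested directly. In siWdr5 the differences of *Cdh1* and *Spint1* were less negative at day 6 than at day 3, by 1.22 (SE 0.31, adjusted p = 0.0419) and 1.37 (SE 0.33, adjusted p = 0.0382), and no other gene of the set was called, where 1.03% of all genes tested were called lower and 3.4% higher. Both calls were lost when any 1 of the 8 libraries was left out. In siBrca1 4 genes moved down relative to day 3 and 3 moved up, with 10.3% of all genes in each direction. The 3 with a positive difference, day 6 change minus day 3 change, were *Cdh1* (1.34, SE 0.31, adjusted p = 0.00878), *Spint1* (1.05, SE 0.33, adjusted p = 0.0341) and *Dsp* (0.87, SE 0.29, adjusted p = 0.0462). Those with a negative one were *F11r* (−1.66, SE 0.21, adjusted p = 0.00187), *Cdh3* (−1.17, SE 0.31, adjusted p = 0.0159), *Jup* (−0.83, SE 0.17, adjusted p = 0.00476) and *Llgl2* (−0.86, SE 0.29, adjusted p = 0.0490). Without nt replicate 1 or siBrca1 replicate 2 of day 3 the siBrca1 count was 3, and without siBrca1 replicate 1 of day 6 it was 4. In siBard1 no gene of the set was called by limma or by limma-voom, against 0.0285% and 0.0214% of all genes. At an unadjusted p below 0.05, 8 of the 37 passed, and 2694 of the 14028 genes did.

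The knockdowns also differed from each other at day 3. Between siWdr5 and siBrca1, *Spint2* (−1.15), *Krt18* (−1.50), *F11r* (−0.83) and *Cdh3* (−0.68) were lower in siWdr5 and *Dsp* (0.72) was higher, which makes 4 and 1 of 37 against 10.2% and 5.47% of all genes. Between siWdr5 and siBard1, 5 genes were lower in siWdr5 and 1 higher, against 3.78% and 4.85% of all genes. The 5 were *Epcam* (−1.55), *Spint1* (−1.30), *St14* (−1.29), *Spint2* (−1.10) and *Cdh1* (−1.02), and the gene that was higher was *Jup* (0.45). Between siBrca1 and siBard1, *Epcam* (−1.07), *Cdh1* (−1.02) and *St14* (−0.76) were lower in siBrca1, and *Krt18* (1.72), *Jup* (0.55), *Cdh3* (0.52) and *Pard3* (0.32) were higher, 3 and 4 of 37 against 8.33% and 13.1%. These counts rest on single libraries. The first was 1 without either siWdr5 library and 9 without siBrca1 replicate 1, the second 0 without either siWdr5 library and 2 without either siBard1 library, and the third 0 without siBard1 replicate 2, 3 without siBrca1 replicate 2 and 11 without siBrca1 replicate 1.

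Against the nt control at day 3 the adherens junction genes split in siWdr5 (1 lower, 3 higher) and in siBrca1 (1 lower, 4 higher). In siBard1 none was called. *Cdh1* lies on chromosome 8 of mm10 (106603351 to 106670246), next to *Cdh3* (106510891 to 106557297). At day 3 *Cdh1* stood at 41.5 and 29.4 CPM in the nt control, 12.6 and 12.7 CPM in siWdr5, 15.99 and 10.1 CPM in siBrca1 and 26.5 and 24.9 CPM in siBard1. All 6 knockdown libraries were below both nt libraries, with those of siWdr5 and siBrca1 the lowest. The log2 fold change was −1.46 (SE 0.20, adjusted p = 1.50e-04) in siWdr5 and −1.46 (SE 0.20, adjusted p = 8.26e-05) in siBrca1, and −0.44 (SE 0.20, adjusted p = 0.152) in siBard1, which did not pass. Both calls held under all 14 alternatives. At day 6 *Cdh1* stood at 117 and 159 CPM in the nt control, 113 and 117 CPM in siWdr5, 111 and 141 CPM in siBrca1 and 78.3 and 108 CPM in siBard1. The siWdr5 and siBrca1 libraries overlapped those of the nt control, both siBard1 libraries were below them, and nothing was called.

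*Cdh3*, the other classical cadherin of the set, was called higher in siBrca1. At day 3 it was at 8.84 and 7.32 CPM in the nt control, 9.65 and 9.89 CPM in siWdr5, 15.3 and 15.96 CPM in siBrca1 and 11.6 and 10.1 CPM in siBard1. The 2 siBrca1 libraries were the highest of the 8 and the change was 0.96 (SE 0.16, adjusted p = 3.48e-04). At day 6 the groups overlapped, at 7.89 and 8.67 CPM in the nt control, 10.5 and 6.59 CPM in siWdr5, 5.86 and 8.63 CPM in siBrca1 and 8.03 and 8.57 CPM in siBard1.

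*Jup*, which encodes plakoglobin, a catenin shared by adherens junctions and desmosomes, rose in siWdr5 and in siBrca1 at day 3. At day 3 it stood at 48.1 and 51.8 CPM in the nt control, 86.8 and 81.0 CPM in siWdr5, 90.1 and 89.5 CPM in siBrca1 and 67.6 and 55.7 CPM in siBard1. The 4 libraries of siWdr5 and siBrca1 were above the 4 others. The log2 fold change was 0.75 (SE 0.12, adjusted p = 3.20e-04) in siWdr5 and 0.85 (SE 0.12, adjusted p = 7.07e-05) in siBrca1. Both calls were kept under all 14 alternative fits, but both sizes were below the alternative threshold of 1. At day 6 *Jup* was at 54.6 and 58.0 CPM in the nt control, 64.0 and 76.4 CPM in siWdr5, 59.4 and 54.6 CPM in siBrca1 and 50.6 and 50.0 CPM in siBard1. The siWdr5 libraries remained the highest pair, with a difference of 0.31 (SE 0.12, adjusted p = 0.0954) that did not pass.

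The remaining catenins moved by small steps. *Ctnna1* was at 270.2 and 276 CPM in the nt control, 321 and 371 CPM in siWdr5, 353 and 371 CPM in siBrca1 and 337 and 326 CPM in siBard1 at day 3, with all knockdown libraries above the nt control. It rose by 0.34 (SE 0.10, adjusted p = 0.0221) in siWdr5 and 0.41 (SE 0.10, adjusted p = 0.00568) in siBrca1, calls that quantile normalization removed (adjusted p 0.108 and 0.146). At day 6 it was at 199.7 and 214 CPM in the nt control, 241 and 279.8 CPM in siWdr5, 213 and 249 CPM in siBrca1 and 233 and 228 CPM in siBard1. *Ctnnd1*, whose reads may be shared with an overlapping gene model, was at 36.1 and 41.2 CPM in the nt control, 51.7 and 51.5 CPM in siWdr5, 53.6 and 58.4 CPM in siBrca1 and 50.0 and 48.4 CPM in siBard1 at day 3. It rose by 0.42 (SE 0.11, adjusted p = 0.0108) in siWdr5 and 0.54 (SE 0.11, adjusted p = 0.00146) in siBrca1. Its day 6 levels of 22.6 and 28.1 CPM in the nt control, 32.1 and 38.5 CPM in siWdr5, 27.9 and 36.0 CPM in siBrca1 and 33.7 and 30.7 CPM in siBard1 gave no call.

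Among the desmosome genes, *Pkp2* and *Dsp* gave calls at day 3 and *Pkp2* and *Dsg2* at day 6. *Pkp2*, a plaque protein of desmosomes, was at 93.7 and 82.3 CPM in the nt control, 63.8 and 72.6 CPM in siWdr5, 54.0 and 53.2 CPM in siBrca1 and 67.2 and 62.4 CPM in siBard1 at day 3. Every knockdown library was below both nt libraries. The changes were −0.37 (SE 0.11, adjusted p = 0.0213) in siWdr5, −0.71 (SE 0.11, adjusted p = 2.06e-04) in siBrca1 and −0.44 (SE 0.11, adjusted p = 0.0208) in siBard1. At day 6 *Pkp2* was at 71.2 and 73.2 CPM in the nt control, 58.0 and 48.8 CPM in siWdr5, 67.1 and 55.7 CPM in siBrca1 and 56.0 and 64.4 CPM in siBard1, and again every knockdown library lay below the nt control, with a call in siWdr5 (−0.44, SE 0.14, adjusted p = 0.0475).

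*Dsp*, the largest plaque protein, stood at 219.6 and 250.1 CPM in the nt control, 191 and 186 CPM in siWdr5, 135 and 97.3 CPM in siBrca1 and 156 and 113 CPM in siBard1 at day 3. The nt libraries were the highest, the siWdr5 libraries came next, and the 4 others were lower still. The change was −1.03 (SE 0.16, adjusted p = 1.85e-04) in siBrca1 and −0.82 (SE 0.16, adjusted p = 0.00532) in siBard1, both called, while siWdr5 gave −0.31 (SE 0.16, adjusted p = 0.147). The difference between siWdr5 and siBrca1 was itself called (0.72, SE 0.16, adjusted p = 0.00889). At day 6 *Dsp* was at 116 and 168 CPM in the nt control, 155 and 172 CPM in siWdr5, 106 and 149 CPM in siBrca1 and 132 and 164 CPM in siBard1. Each knockdown overlapped the nt control, while both siWdr5 libraries were above both siBrca1 libraries.

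*Dsg2*, a desmosomal cadherin, was read 12 to 26 times per library at day 3 and stood at 1.85 and 1.56 CPM in the nt control, 1.07 and 0.933 CPM in siWdr5, 1.54 and 1.26 CPM in siBrca1 and 1.40 and 0.916 CPM in siBard1. All knockdown libraries were below both nt libraries there, without a call. At day 6 *Dsg2* was at 15.2 and 19.7 CPM in the nt control, 10.8 and 7.54 CPM in siWdr5, 13.6 and 18.2 CPM in siBrca1 and 8.93 and 12.3 CPM in siBard1, and the siWdr5 difference was −0.94 (SE 0.25, adjusted p = 0.0245). *Dsc2*, at 12.6 to 16.3 CPM at day 3, and *Pkp3*, at 0.418 to 0.907 CPM, were called in no knockdown. Their day 6 levels ranged over 7.65 to 17.5 CPM and 2.09 to 7.55 CPM.

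The keratins did not move together. *Krt8* and *Krt18* encode the partner filaments of simple epithelia and both lie on chromosome 15. At day 3 *Krt8* stood at 8.05 and 3.56 CPM in the nt control, 2.13 and 2.46 CPM in siWdr5, 2.496 and 3.51 CPM in siBrca1 and 7.36 and 3.36 CPM in siBard1. The nt libraries were far apart, and the siWdr5 libraries were both below them, with a change of −1.23 (SE 0.39, adjusted p = 0.0253) that 5 of 14 alternatives removed. The day 6 levels were 169 and 232 CPM in the nt control, 148 and 81.3 CPM in siWdr5, 167 and 165 CPM in siBrca1 and 122 and 146 CPM in siBard1. All 6 knockdown libraries were below both nt libraries, and the siWdr5 difference was −0.86 (SE 0.24, adjusted p = 0.0330).

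*Krt18* at day 3 stood at 3.76 and 4.30 CPM in the nt control, 3.00 and 2.86 CPM in siWdr5, 11.9 and 5.76 CPM in siBrca1 and 2.52 and 2.53 CPM in siBard1. The siBrca1 libraries were above all others, and the change of 1.04 (SE 0.29, adjusted p = 0.00906) was opposite in sign to that of *Krt8* in the same libraries (−0.85, SE 0.39, adjusted p = 0.0864, not called). Leaving out siBrca1 replicate 1, the higher of the pair, ended the call (adjusted p = 0.129). Its difference between siBrca1 and siBard1 was 1.72 (SE 0.29, adjusted p = 0.00420). At day 6 *Krt18* was at 115 and 190.0 CPM in the nt control, 120.4 and 77.5 CPM in siWdr5, 132 and 147 CPM in siBrca1 and 83.4 and 102 CPM in siBard1, with no call.

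*Krt19*, a keratin also found in mesothelium, rose in each knockdown at day 3. It was at 28.7 and 30.9 CPM in the nt control, 45.1 and 44.5 CPM in siWdr5, 47.9 and 38.8 CPM in siBrca1 and 42.6 and 37.3 CPM in siBard1, with all 6 knockdown libraries above the nt control. The changes were 0.59 (SE 0.13, adjusted p = 0.00331), 0.54 (SE 0.13, adjusted p = 0.00375) and 0.42 (SE 0.13, adjusted p = 0.0427) in siWdr5, siBrca1 and siBard1. At day 6 *Krt19* was at 27.7 and 32.4 CPM in the nt control, 39.4 and 43.7 CPM in siWdr5, 39.5 and 41.1 CPM in siBrca1 and 25.5 and 33.3 CPM in siBard1, where siWdr5 and siBrca1 were above the nt control without a call. *Krt7* was at 2.77 and 2.02 CPM in the nt control, 5.24 and 3.39 CPM in siWdr5, 3.82 and 2.53 CPM in siBrca1 and 3.15 and 2.63 CPM in siBard1 at day 3 and rose by 0.83 (SE 0.30, adjusted p = 0.0428) in siWdr5, a call that 6 of 14 alternatives removed. At day 6 it was at 12.5 and 25.1 CPM in the nt control, 13.1 and 9.18 CPM in siWdr5, 17.4 and 19.0 CPM in siBrca1 and 9.84 and 10.6 CPM in siBard1, where the nt libraries spanned those of siBrca1, with no call. The summed level of 5 mesothelium markers was 39.004 to 42.3 CPM in the nt control at day 3, 57.5 to 59.3 CPM in siWdr5, 49.6 to 57.5 CPM in siBrca1 and 36.8 to 41.9 CPM in siBard1. In siWdr5 2 of 5 were called higher and 1 lower, against 18.3% and 16.8% of all genes tested. In siBrca1 1 was called higher and 1 lower, against 25.4% and 21.8%, with a median log2 fold change of −0.59. The siBrca1 sum followed *Msln*, at 22.6 and 25.2 CPM in the nt control and 44.0 and 40.7 CPM in siBrca1. The part of these markers in the keratin values was not tested.

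Of the 9 tested tight junction genes 5 were lower in siWdr5 at day 6, and none was called in the other knockdowns at that day. *Cldn3* stood at 1.98 and 1.16 CPM in the nt control, 0.510 and 0.734 CPM in siWdr5, 1.10 and 0.840 CPM in siBrca1 and 1.19 and 0.864 CPM in siBard1 at day 3, from 6 to 28 reads per library. Both siWdr5 libraries were below the nt control, with a change of −1.31 (SE 0.40, adjusted p = 0.0219). At day 6 *Cldn3* was at 7.49 and 10.3 CPM in the nt control, 3.45 and 5.10 CPM in siWdr5, 6.38 and 7.35 CPM in siBrca1 and 4.12 and 3.57 CPM in siBard1. All knockdown libraries were below the nt control and the siWdr5 difference was −1.07 (SE 0.26, adjusted p = 0.0173).

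*Cldn4*, *Cldn6* and *Cldn7* gave no call at day 3, where *Cldn4* had 7 to 28 reads per library and the other two had 0 to 5. At day 6 *Cldn4* was at 43.4 and 59.0 CPM in the nt control, 25.9 and 32.5 CPM in siWdr5, 38.0 and 49.7 CPM in siBrca1 and 21.6 and 26.6 CPM in siBard1. *Cldn6* was at 16.9 and 22.9 CPM in the nt control, 11.03 and 12.4 CPM in siWdr5, 14.3 and 18.5 CPM in siBrca1 and 11.2 and 9.56 CPM in siBard1. *Cldn7* was at 7.81 and 11.2 CPM in the nt control, 3.72 and 3.57 CPM in siWdr5, 7.68 and 6.34 CPM in siBrca1 and 3.44 and 5.51 CPM in siBard1. For all 3 claudins both siWdr5 libraries and both siBard1 libraries were below both nt libraries. The siWdr5 differences were −0.80 (SE 0.20, adjusted p = 0.0193), −0.75 (SE 0.20, adjusted p = 0.0263) and −1.36 (SE 0.27, adjusted p = 0.00957), and those of siBard1 were −1.08 (SE 0.20, adjusted p = 0.0736), −0.93 (SE 0.20, adjusted p = 0.116) and −1.10 (SE 0.27, adjusted p = 0.154), which were not called.

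*Tjp3*, a ZO protein of epithelial tight junctions, was at 1.59 and 1.73 CPM in the nt control, 0.758 and 0.999 CPM in siWdr5, 0.579 and 0.980 CPM in siBrca1 and 1.05 and 0.916 CPM in siBard1 at day 3. The knockdown libraries were all below the nt control, and the change in siBrca1 was called (−1.14, SE 0.38, adjusted p = 0.0241). The day 6 levels were 7.41 and 9.94 CPM in the nt control, 4.62 and 2.96 CPM in siWdr5, 5.60 and 6.47 CPM in siBrca1 and 4.35 and 5.74 CPM in siBard1. Again all 6 were below, and the siWdr5 difference was −1.22 (SE 0.27, adjusted p = 0.0138).

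*F11r*, the junctional adhesion molecule JAM-A, lay above the nt control in the knockdowns at day 3 and below it at day 6. At day 3 it stood at 8.91 and 10.0 CPM in the nt control, 11.7 and 13.7 CPM in siWdr5, 19.9 and 25.7 CPM in siBrca1 and 17.6 and 15.2 CPM in siBard1. All 6 knockdown libraries were above the nt control, by 1.26 (SE 0.17, adjusted p = 6.02e-05) in siBrca1 and 0.79 (SE 0.17, adjusted p = 0.00825) in siBard1, and by 0.43 (SE 0.17, adjusted p = 0.0625) in siWdr5, which did not pass. At day 6 *F11r* was at 26.5 and 25.7 CPM in the nt control, 19.4 and 21.7 CPM in siWdr5, 19.6 and 20.0 CPM in siBrca1 and 19.8 and 20.8 CPM in siBard1, and all 6 knockdown libraries were below the nt control, by −0.34, −0.40 and −0.36, with no call. In the nt control the gene rose by 1.47 (SE 0.15, adjusted p = 4.15e-06).

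*Ocln*, the tight junction protein occludin, *Cgn*, the plaque protein cingulin, and *Tjp1* were called in no knockdown. At day 6 *Ocln* ranged over 6.34 to 11.4 CPM, *Cgn* over 3.97 to 9.55 CPM and *Tjp1* over 102.0 to 148 CPM in the 8 libraries. *Tjp1* at day 3 stayed within 151 to 177 CPM.

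Of the polarity genes, *Pard6b*, a subunit of the Par complex, gave calls at day 3 and *Crb3* at day 6. *Pard6b* lies on chromosome 2 (168081004 to 168101203). At day 3 it stood at 7.33 and 7.32 CPM in the nt control, 4.06 and 3.12 CPM in siWdr5, 4.41 and 3.16 CPM in siBrca1 and 4.69 and 3.93 CPM in siBard1. The nt libraries were nearly equal and all 6 knockdown libraries were below them. The changes were −1.04 (SE 0.23, adjusted p = 0.00408), −0.97 (SE 0.23, adjusted p = 0.00385) and −0.77 (SE 0.23, adjusted p = 0.0426) in siWdr5, siBrca1 and siBard1. At day 6 it stood at 11.7 and 13.6 CPM in the nt control, 10.2 and 7.89 CPM in siWdr5, 9.33 and 12.1 CPM in siBrca1 and 8.11 and 10.9 CPM in siBard1, with both siWdr5 and both siBard1 libraries below the nt control and no call.

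*Crb3* had 1 to 8 reads per library at day 3, at 0.664 and 0.250 CPM in the nt control, 0.261 and 0.203 CPM in siWdr5, 0.358 and 0.347 CPM in siBrca1 and 0.277 and 0.500 CPM in siBard1, which allowed no call. At day 6 *Crb3* was at 21.8 and 21.7 CPM in the nt control, 12.3 and 7.01 CPM in siWdr5, 17.3 and 12.0 CPM in siBrca1 and 12.5 and 15.6 CPM in siBard1. All knockdown libraries were below the nt control, and the siWdr5 difference was −1.23 (SE 0.27, adjusted p = 0.0124). *Ap1m2* was at 0.334 and 0.250 CPM in the nt control, 0.136 and 0.203 CPM in siWdr5, 0.210 and 0.136 CPM in siBrca1 and 0.347 and 0.136 CPM in siBard1 at day 3. The day 6 levels were 13.8 and 15.4 CPM in the nt control, 9.93 and 6.17 CPM in siWdr5, 11.6 and 13.0 CPM in siBrca1 and 7.73 and 13.4 CPM in siBard1, with a siWdr5 difference of −0.90 (SE 0.28, adjusted p = 0.0453), a call that 7 of 13 alternatives removed.

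*Pard3* went against the late genes. At day 3 it was at 95.8 and 97.8 CPM in the nt control, 96.2 and 100.6 CPM in siWdr5, 95.4 and 105 CPM in siBrca1 and 84.5 and 75.7 CPM in siBard1, with no difference from the nt control called. At day 6 *Pard3* was at 61.5 and 64.4 CPM in the nt control, 85.7 and 93.9 CPM in siWdr5, 73.8 and 76.1 CPM in siBrca1 and 69.7 and 77.6 CPM in siBard1, and all 6 knockdown libraries were above both nt libraries. The siWdr5 difference was 0.51 (SE 0.11, adjusted p = 0.0136). *Llgl2*, a Lethal giant larvae polarity protein, was called in no knockdown and ranged over 7.46 to 11.4 CPM at day 3 and 16.01 to 35.1 CPM at day 6. *Rab25* was at 1.28 to 5.08 CPM at day 6.

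Of the regulators of epithelial genes, *Esrp2* and *Elf3* gave calls at day 3 and *Esrp1* at day 6. *Esrp2*, an epithelial splicing factor, was at 7.92 and 7.04 CPM in the nt control, 4.30 and 4.58 CPM in siWdr5, 4.78 and 2.74 CPM in siBrca1 and 5.53 and 4.19 CPM in siBard1 at day 3. All knockdown libraries were below the nt control. The changes were −0.75 (SE 0.26, adjusted p = 0.0378) in siWdr5, which 8 of 14 alternatives removed, and −1.04 (SE 0.26, adjusted p = 0.00464) in siBrca1. At day 6 it was at 15.3 and 17.7 CPM in the nt control, 15.5 and 9.56 CPM in siWdr5, 13.8 and 15.2 CPM in siBrca1 and 11.5 and 13.7 CPM in siBard1, with no call. Its paralogue *Esrp1* had 3 to 17 reads per library at day 3 and stood at 1.26 and 0.878 CPM in the nt control, 0.323 and 0.667 CPM in siWdr5, 1.02 and 0.910 CPM in siBrca1 and 0.907 and 0.708 CPM in siBard1. At day 6 *Esrp1* was at 14.4 and 23.2 CPM in the nt control, 11.7 and 7.01 CPM in siWdr5, 15.3 and 14.8 CPM in siBrca1 and 11.3 and 19.2 CPM in siBard1, and the siWdr5 difference was −1.01 (SE 0.31, adjusted p = 0.0438).

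*Elf3*, an epithelial ETS factor, was at 1.19 and 0.764 CPM in the nt control, 0.261 and 0.468 CPM in siWdr5, 0.358 and 0.488 CPM in siBrca1 and 0.627 and 0.552 CPM in siBard1 at day 3, from 16 and 11 reads in the nt control and 2 and 5 reads in siWdr5. The change of −1.45 (SE 0.49, adjusted p = 0.0336) in siWdr5 rests on those few reads. The day 6 levels were 10.1 and 10.1 CPM in the nt control, 7.17 and 6.89 CPM in siWdr5, 9.94 and 11.5 CPM in siBrca1 and 6.90 and 9.23 CPM in siBard1, with no call. *Grhl2*, a Grainyhead activator of *Cdh1* and claudin genes, ranged over 0.203 to 0.557 CPM at day 3 and 4.07 to 9.55 CPM at day 6 and was called in no knockdown. *Ovol1* was at 0.671 to 1.35 CPM at day 6.

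The surface genes held the 3 largest falls of the set in siWdr5 at day 3. *Epcam* lies on chromosome 17 (87635979 to 87651129), and its promoter window is the first printed above. At day 3 it stood at 11.1 and 5.90 CPM in the nt control, 2.19 and 2.06 CPM in siWdr5, 4.41 and 1.97 CPM in siBrca1 and 7.29 and 5.28 CPM in siBard1. The siWdr5 and siBrca1 libraries were below both nt libraries, which were themselves unequal. The log2 fold change was −1.93 (SE 0.36, adjusted p = 0.00118) in siWdr5 and −1.46 (SE 0.36, adjusted p = 0.00429) in siBrca1. Without nt replicate 1, the higher library, the siBrca1 call was lost (adjusted p = 0.0742). At day 6 *Epcam* was at 105 and 98.3 CPM in the nt control, 68.7 and 46.3 CPM in siWdr5, 104 and 82.8 CPM in siBrca1 and 69.2 and 105 CPM in siBard1. Both siWdr5 libraries were again below the nt control, with a difference of −0.85 (SE 0.22, adjusted p = 0.0241).

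*St14* encodes matriptase, a membrane serine protease of epithelia, and *Spint1* and *Spint2* encode its inhibitors HAI-1 and HAI-2. All 3 fell in siWdr5 at day 3. *Spint1* on chromosome 2 (119237362 to 119249527) stood at 5.08 and 4.24 CPM in the nt control, 1.07 and 1.20 CPM in siWdr5, 1.76 and 2.11 CPM in siBrca1 and 3.22 and 2.42 CPM in siBard1 at day 3. The 4 groups did not overlap, from the nt control down through siBard1 and siBrca1 to siWdr5. The changes were −2.04 (SE 0.27, adjusted p = 1.18e-04) in siWdr5, the largest fall of the set, and −1.27 (SE 0.27, adjusted p = 0.00180) in siBrca1, both kept under all 14 alternatives. At day 6 *Spint1* was at 16.8 and 22.5 CPM in the nt control, 11.4 and 13.0 CPM in siWdr5, 16.4 and 17.1 CPM in siBrca1 and 9.53 and 14.5 CPM in siBard1. The siWdr5 difference there was −0.67 (SE 0.22, adjusted p = 0.0513), just outside the threshold.

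*Spint2* at day 3 stood at 9.63 and 9.09 CPM in the nt control, 3.56 and 2.92 CPM in siWdr5, 8.25 and 6.19 CPM in siBrca1 and 8.27 and 5.80 CPM in siBard1. The siWdr5 libraries were far below all others, with a change of −1.54 (SE 0.22, adjusted p = 2.20e-04). In siBrca1 the change was −0.39 (SE 0.22, adjusted p = 0.169), and the difference between siWdr5 and siBrca1 was called (−1.15, SE 0.22, adjusted p = 0.00414). At day 6 *Spint2* was at 36.2 and 37.5 CPM in the nt control, 24.1 and 19.6 CPM in siWdr5, 28.1 and 24.1 CPM in siBrca1 and 21.6 and 28.0 CPM in siBard1. All 6 knockdown libraries lay below the nt control, and the siWdr5 difference was −0.76 (SE 0.17, adjusted p = 0.0129).

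*St14* at day 3 stood at 12.1 and 11.5 CPM in the nt control, 5.80 and 4.91 CPM in siWdr5, 10.2 and 5.76 CPM in siBrca1 and 14.2 and 12.0 CPM in siBard1. The siBrca1 libraries were unequal, 1 near the nt control and 1 near siWdr5. The change was −1.14 (SE 0.23, adjusted p = 0.00219) in siWdr5 and −0.62 (SE 0.23, adjusted p = 0.0424) in siBrca1, and the second call was lost without siBrca1 replicate 2 (adjusted p = 0.458). At day 6 it was at 38.4 and 44.5 CPM in the nt control, 41.4 and 29.8 CPM in siWdr5, 39.1 and 36.9 CPM in siBrca1 and 35.2 and 43.7 CPM in siBard1, where all groups overlapped. *Prss8*, the protease prostasin, was at 0.136 to 0.664 CPM at day 3 and 4.76 to 12.1 CPM at day 6 and was called in no knockdown.

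**Figure D4:**
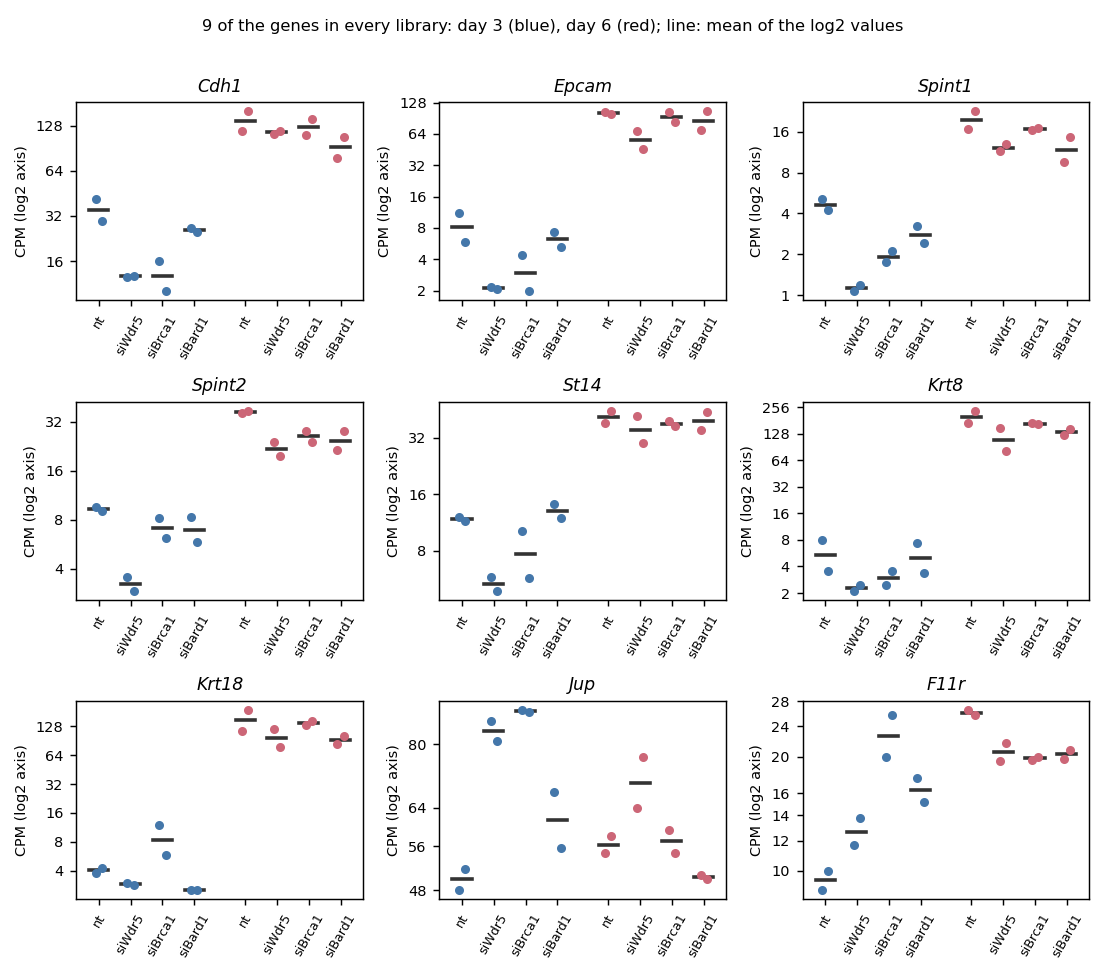
CPM (log2 axis, a separate range for each gene) of 9 of the genes in every library of day 3 (blue) and day 6 (red), with black lines at the mean of the log2 values of each group. *Spint1* steps down from nt to siBard1, siBrca1 and siWdr5 at day 3, *Jup* is highest in siWdr5 and siBrca1, and *F11r* is above the nt control in all knockdowns at day 3 and below it at day 6.

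Other genes of the same structures gave calls in both directions. Of 49 further epithelial genes (other claudins, nectins, desmosome and polarity genes, keratins and regulators) 33 were tested. In the nt course 12 rose and 8 fell, against 19% and 27.1% of all genes tested, with a median log2 fold change of 0.21. At day 3, 5 fell and 5 rose in siWdr5, where 16.8% and 18.3% of all genes did, 8 and 5 in siBrca1, against 21.8% and 25.4%, and 3 and 4 in siBard1, against 5.87% and 8.67%. The medians were −0.086, −0.21 and −0.068. At day 6 in siWdr5 1 was lower and 3 were higher, against 5.7% and 16.1% of all genes, and none was called in siBrca1 or siBard1. Of 9 tested repressors and mesenchymal genes, 6 rose in siWdr5, 7 in siBrca1 and 4 in siBard1 at day 3 and none fell, with medians of 0.78, 0.81 and 0.43. Of all genes tested 18.3%, 25.4% and 8.67% rose in these comparisons. At day 6, 7 of the 9 were higher in siWdr5, against 16.1% of all genes, and none was called in siBrca1 or siBard1. *Zeb1*, which represses *Cdh1*, was at 80.7 and 73.5 CPM in the nt control at day 3, 116 and 127 CPM in siWdr5, 142 and 176 CPM in siBrca1 and 124 and 122 CPM in siBard1. All 6 knockdown libraries were above the nt control, with changes of 0.66 (SE 0.12, adjusted p = 8.76e-04), 1.04 (SE 0.12, adjusted p = 1.89e-05) and 0.68 (SE 0.12, adjusted p = 0.00253). *Snai1* changed by 1.15 (SE 0.15, adjusted p = 8.19e-05) in siWdr5 and 0.93 (SE 0.15, adjusted p = 1.99e-04) in siBrca1, and the matrix gene *Fn1* by 1.13 (SE 0.17, adjusted p = 3.39e-04) and 1.30 (SE 0.17, adjusted p = 6.28e-05). Whether these genes bear on the epithelial ones was not tested.

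Markers of cell types moved with the knockdowns as well. The 8 fibroblast markers, led by *Col1a1*, *Col1a2* and *Col3a1*, summed to 5797 to 6725 CPM in the nt control at day 3 and 11448 to 11770 CPM in siWdr5, where all 8 rose. They summed to 8569 to 9857 CPM in siBrca1 (4 rose, 1 fell) and 7410 to 8631 CPM in siBard1 (1 fell). Of all genes tested 18.3% rose in siWdr5, 25.4% rose and 21.8% fell in siBrca1, and 5.87% fell in siBard1. At day 6 the sums were 3915 to 3942 CPM in the nt control and 7311 to 10386 CPM in siWdr5. In siWdr5 4 of 8 were called higher, against 16.1% of all genes tested. The sums were 4250.2 to 4839 CPM in siBrca1 and 5759 to 5862 CPM in siBard1, where none was called. The sum follows the collagens and over the nt course it was lower at day 6. *Col1a1* went from 3312 and 4043 CPM to 1048 and 1016 CPM. Of the 8 markers 4 rose and 2 fell, against 19% and 27.1% of all genes tested, and *Dcn* went from 31.7 and 30.4 CPM to 300.8 and 291 CPM. The 9 pluripotent cell markers summed to 8.70 to 11.2 CPM in the nt control at day 3, 2.55 to 3.22 CPM in siWdr5, 4.04 to 5.06 CPM in siBrca1 and 4.604 to 5.08 CPM in siBard1. Most of that nt sum was *Sall4*, at 8.38 and 6.87 CPM in the nt control and 1.63 and 1.20 CPM in siWdr5, and it was the only 1 of the 6 tested markers called, lower in each knockdown. At day 6 they summed to 160.5 to 177 CPM in the nt control, 52.0 to 142 CPM in siWdr5, 157 to 492 CPM in siBrca1 and 184 to 256 CPM in siBard1, with none called. *Nanog* was at 55.5 and 49.3 CPM in the nt control and 29.8 and 12.8 CPM in siWdr5 at day 6. In siBrca1 it was at 126 and 38.2 CPM and in siBard1 at 64.6 and 57.1 CPM. *Tdgf1* was at 29.1 and 28.8 CPM in the nt control and 31.3 and 8.31 CPM in siWdr5 at day 6. Keratinocyte markers summed to at most 17.3 CPM, endothelial ones to at most 59.9 CPM and macrophage ones to at most 22.7 CPM in any library. Most of the endothelial sum was *Tek*, at 51.0 and 57.1 CPM in siWdr5 at day 3, where that sum was highest. Each keratinocyte or endothelial list has members that stand at 0 reads in some libraries (*Krt5*, *Krt1*, *Pecam1*, *Cdh5*). The part of these cells in the values of the junction and identity genes was not tested.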

How the data were processed

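Ribosomal RNA was depleted and the libraries were sequenced paired-end. Per the methods and processing notes, the authors aligned the reads to mm10 with STAR 2.5.2b and made log-CPM values with edgeR 3.20.9. The deposited table gives log2 CPM of 18990 genes with between-library scaling and a small added prior count. The read counter, its annotation and its use of strand are not given in the sources used here. Every deposited value could be turned back into a whole number of reads (100%, tolerance 0.01 reads), with scaling factors of 0.925 to 1.12. CPM in the text is 2 to the power of the deposited value. A count of 3 reads, the floor used here, is 0.115 to 0.260 CPM.

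The 14028 genes with a mean log2 value of at least 0 were tested with limma 3.58.1 (R 4.3.3), which modelled the 8 libraries of a day with 1 mean per group and moderated the variances with a trend. The nt course and the differences between days were fitted over all 16 libraries. Tests are two-sided, with Benjamini-Hochberg adjustment across these genes. The steps were tested on simulated data. Under the rule for named genes all 39 genes are named, and those called in at least 1 of the 6 comparisons of a knockdown with the nt control are given in every library. The genes, lists and tests were chosen with earlier results of these data known.

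Coordinates and exon lengths come from GENCODE vM21 (mm10), which need not be the authors' annotation. In it 22.0% of the exon bases of *Ovol1*, and 5.16% to 7.79% of those of *Esrp2*, *Elf3*, *Prss8*, *Dsp* and *Krt8*, lie opposite another gene. Promoter windows come from RefSeq. The alternatives were a log2 fold change above 1, no filter, a filter at 2, log2(CPM + 1), no trend, other sets of libraries in the fit, the replicate number as a block, centring, quantile normalization, limma-voom on the recovered reads, and leaving out each library. Where the call of a gene is said to hold or be lost under a number of alternatives, the threshold of 1 is not counted among them.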

Additional observations from a re-analysis of the deposited data

Results flagged for a closer look

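These results are listed because the difference between the differences of separate groups was itself tested and passed limma's threshold (adjusted p below 0.05 over 14028 genes). In the siBrca1 change between days 10.8% of the tested genes of the set were called lower and 8.11% higher. That is near the 10.3% of all genes tested in each direction. In the siWdr5 change the shares were 0% and 5.41%, against 1.03% and 3.4%. How far these calls rest on single libraries is given with the results above. Between the days, the siWdr5 difference from the nt control changed for *Cdh1* by 1.22 and for *Spint1* by 1.37 on the log2 scale, day 6 minus day 3. *Cdh1* went from −1.46 at day 3 to −0.24 at day 6 and *Spint1* from −2.04 to −0.67. The siBrca1 difference changed by 1.34 for *Cdh1*, 1.05 for *Spint1*, 0.87 for *Dsp*, −0.83 for *Jup*, −0.86 for *Llgl2*, −1.17 for *Cdh3* and −1.66 for *F11r*. *F11r* went from 1.26 to −0.40 and *Cdh1* from −1.46 to −0.13.

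At day 3, siWdr5 minus siBrca1 was −0.68 for *Cdh3*, 0.72 for *Dsp*, −1.50 for *Krt18*, −1.15 for *Spint2* and −0.83 for *F11r*. The difference of siWdr5 from siBard1 was −1.02 for *Cdh1*, 0.45 for *Jup*, −1.55 for *Epcam*, −1.30 for *Spint1*, −1.10 for *Spint2* and −1.29 for *St14*. For siBrca1 minus siBard1 it was −1.02 for *Cdh1*, 0.52 for *Cdh3*, 0.55 for *Jup*, 1.72 for *Krt18*, 0.32 for *Pard3*, −1.07 for *Epcam* and −0.76 for *St14*. In the same order, the shares of the set called lower and higher were 10.8% and 2.70%, 13.5% and 2.70%, and 8.11% and 10.8%. Over all genes tested they were 10.2% and 5.47%, 3.78% and 4.85%, and 8.33% and 13.1%. In the siBrca1 libraries *Epcam* stood at 4.41 and 1.97 CPM, *St14* at 10.2 and 5.76 CPM and *Krt18* at 11.9 and 5.76 CPM, so their differences from siBard1 rest on unequal libraries. *Brca1* itself was unequal in the same libraries, at 37.5 and 19.4 CPM.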

How the results depend on the processing

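Single genes were counted in each comparison in which at least 1 fit called them, here with the log2 fold change above 1 among the alternatives. Of these values under the alternatives, 2156 kept their side of the threshold, 326 fell short of it, 131 newly passed it and 4 changed sign. These 4 are differences between knockdowns that were not called. At day 3 the siWdr5 and siBrca1 difference ran from −1.06 without siBrca1 replicate 2 to 0.11 without siBrca1 replicate 1 for *Epcam*, and from −0.11 without siBrca1 replicate 2 to 0.70 without siBrca1 replicate 1 for *Esrp2*. That of *Dsp* between siBrca1 and siBard1 ran from −0.45 without siBrca1 replicate 1 to 0.028 without siBrca1 replicate 2, with 0.024 without siBard1 replicate 1. With a log2 fold change above 1, the genes called at day 3 were 9 in siWdr5, 8 in siBrca1 and 0 in siBard1, at day 6 in siWdr5 5, in the siBrca1 change between days 4, and between knockdowns 2 (siWdr5 and siBrca1) and 3 (siBrca1 and siBard1). With no filter, siBard1 at day 3 had 2, siWdr5 against siBard1 3 and siBrca1 against siBard1 3. With a filter at 2 on the log2 scale, siWdr5 at day 6 had 9 and the nt course 19, since fewer genes were tested. Without a trend, siBard1 at day 3 had 1, siWdr5 at day 6 had 6, the siWdr5 change between days 0, siWdr5 against siBard1 3 and siBrca1 against siBard1 0. Fitting the compared groups only gave 11 for siBard1 at day 3, 8 and 2 for the siWdr5 and siBard1 changes between days, and 3 for siBrca1 against siBard1. Centring or quantile normalization gave 1 in the siWdr5 and 1 in the siBard1 change between days, and limma-voom 1 in the siWdr5 and 4 in the siBrca1 change. The labels do not say what a replicate number shares, and with 2 numbers per group the pairing could not be settled: the deviations of same-numbered libraries correlated at −0.093 to 0.072 at day 3 (0 of 6 pairs of groups above 0.1) and −0.070 to 0.26 at day 6 (3 of 6 above 0.1). With the replicate block, siBard1 at day 6 had 1 gene called in place of 0, the siWdr5 change between days 4 in place of 2 and the siBard1 change 1 in place of 0. Leaving out single libraries gave 8 to 13 genes in siWdr5, 11 to 16 in siBrca1 and 1 in siBard1 at day 3, 0 to 14 in siWdr5 at day 6, 29 to 31 in the nt course, 0 in the siWdr5 and 3 to 9 in the siBrca1 change between days, and 1 to 9, 0 to 2 and 0 to 11 between knockdowns. The causes were not tested. The 12 genes with a day 3 mean below 0 had few reads for a test at that day, where 3 reads are 0.156 to 0.221 CPM.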
